A study of Mus musculus with 18 samples.

Results

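The genes described here activate long-chain fatty acids, carry them into the mitochondrion on carnitine, or release them from coenzyme A in the mouse heart. They are Acsl1 (probe TC0800000538.mm.2), Cpt1b (TC1500002350.mm.2), Cpt2 (TC0400003230.mm.2), Acot1 (TC1200000798.mm.2) and Acot2 (TC1200000797.mm.2). These 5 genes were chosen by symbol from the authors' gene lists and make up 5 of the 2562 genes with a name among 4704 probes with values per sample. Each list gives the probes that passed an unadjusted 0.05 when hypoxic and normoxic hearts of 1 age were compared. Of the 5 genes, 4 stand in the list for postnatal day 8 (P8) and 2, Cpt2 and Acot1, in the list for P30. Their hypoxia differences at those ages were therefore selected, and the counts of calls below are descriptions from which nothing is read about the group.

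A long-chain fatty acid enters metabolism once an acyl-CoA synthetase has joined it to coenzyme A, and Acsl1 is the main such enzyme of the heart. Cpt1b, the muscle form of carnitine palmitoyltransferase at the outer mitochondrial membrane, moves the acyl group to carnitine, a translocase carries acylcarnitine inward, and Cpt2 at the inner membrane returns the acyl group to coenzyme A for beta-oxidation. Acyl-CoA thioesterases split acyl-CoA into free fatty acid and coenzyme A, Acot1 in the cytosol and Acot2 in the mitochondrial matrix. Several of these genes are known targets of peroxisome proliferator-activated receptors (PPARs), and the heart takes up fatty acid oxidation as its main fuel supply in the weeks after birth.

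The study measured transcripts in whole hearts of mice in normoxia or in hypoxia at 11% oxygen, on Clariom S arrays. A transcript cluster is read out by 1 probe set, for which the word probe is used. The groups were normoxic P8 (n = 4, samples 13, 22, 23 and 24), hypoxic P8 (n = 5, samples 4 to 8), normoxic P30 (n = 4, samples 2 to 5) and hypoxic P30 (n = 5, samples 1 to 5). Cardiac maturation in cyanotic congenital heart disease is the topic that the title of the series gives. Strain, sex, a genotype and the duration of hypoxia are not given in the labels, and since no label ties a sample to an animal of its own, p-values measure only the spread between samples, which may be technical.

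The promoters of the 2 thioesterases, whose signals differed most between groups, and of Cpt2, whose signal did not differ at P8, are printed from RefSeq on GRCm38.p6. Of the 5 genes, 4 matched the promoter table. Each line gives the 250 bases before the gene's start, 5′ to 3′ on the gene's strand, for Acot1 at chr12:84009252-84009501 (plus strand), Acot2 at chr12:83987611-83987860 (plus strand) and Cpt2 at chr4:107923590-107923839 (minus strand). Capitals mark GGGCGG or CCAAT on either strand, which were chosen after the sequences had been seen.
Acot1: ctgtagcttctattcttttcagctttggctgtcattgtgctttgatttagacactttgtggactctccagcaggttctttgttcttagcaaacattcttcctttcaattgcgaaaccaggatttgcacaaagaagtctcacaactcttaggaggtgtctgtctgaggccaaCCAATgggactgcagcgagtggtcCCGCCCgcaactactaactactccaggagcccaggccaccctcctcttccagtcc
Acot2: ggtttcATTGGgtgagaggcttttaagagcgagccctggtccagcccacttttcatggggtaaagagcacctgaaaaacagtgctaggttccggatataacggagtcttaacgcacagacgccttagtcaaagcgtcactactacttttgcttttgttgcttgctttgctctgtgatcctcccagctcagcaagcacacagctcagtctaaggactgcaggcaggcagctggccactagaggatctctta
Cpt2: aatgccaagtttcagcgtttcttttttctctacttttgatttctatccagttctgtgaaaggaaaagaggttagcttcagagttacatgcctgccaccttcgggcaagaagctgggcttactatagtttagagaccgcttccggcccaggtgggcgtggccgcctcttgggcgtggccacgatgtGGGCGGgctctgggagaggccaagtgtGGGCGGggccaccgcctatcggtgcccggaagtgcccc
The half-site AGGTCA of nuclear receptors, its direct repeat with 1 base between the copies, which PPARs bind, with up to 2 mismatches, and ACGTG, the core of the HIF motif, were searched on both strands. None of them lay in the windows of these 3 genes or in the 2 start sites of Acsl1. They occurred in 14.0%, 3.25% and 16.7% of 32536 promoter windows of the same length. Acot1 held 1 GGGCGG and 1 CCAAT, Acot2 held 1 CCAAT and Cpt2 held 2 GGGCGG, with no overlap between them. The first start site of Acsl1 held 4 GGGCGG and the second 2 CCAAT. Such matches stood in 33.0% (GGGCGG) and 33.8% (CCAAT) of all windows. A match is a run of letters and not a shown binding site.

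Depth has no counterpart on arrays, whose number limits the precision. Array medians over the table were 7.38 to 8.07 on the log2 scale. The table is a selection of 21.2% of the 22201 probes tested on the array, each with at least 0.46 between its highest and lowest group mean. Of 17 cardiomyocyte markers 6 had values, and their mean was 14.49 to 16.34 in all 18 samples. In hypoxic P8 samples 4 and 5 the mean of 10 interferon-induced genes was 13.19 and 14.74, against 6.59 to 10.40 in the other hypoxic P8 samples and 4.38 to 5.42 in normoxic P8 samples. The differences of the 5 genes that rest on hypoxic P8 samples are therefore given with and without samples 4 and 5. In whole heart, fewer cells of a type and less RNA per cell cannot be told apart.

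Acsl1, which activates long-chain fatty acids, had its lowest group mean in normoxic hearts at P8. At P8 its log2 signal was 13.82, 14.40, 14.91 and 14.22 in normoxic samples 13, 22, 23 and 24, and 15.36, 14.76, 15.95, 15.53 and 16.26 in hypoxic samples 4 to 8. At P30 it was 15.56, 15.61, 15.74 and 15.17 in normoxic samples 2 to 5, and 15.01, 15.41, 15.13, 15.30 and 15.08 in hypoxic samples 1 to 5. Hypoxic P8 sample 5 lay below normoxic sample 23, so the P8 groups overlapped, and the P30 groups overlapped too. Group means were 14.34 ± 0.45 (SD, n = 4) and 15.57 ± 0.57 (SD, n = 5) at P8 and 15.52 ± 0.25 (SD, n = 4) and 15.19 ± 0.16 (SD, n = 5) at P30. Hypoxia against normoxia at P8 differed by 1.23 ± 0.27 (SE) on the log2 scale, or 2.35-fold, with a limma adjusted p of 0.0114. Centring every array on its median ended the call (0.87, adjusted p = 0.0620), as did a fit of the P8 groups alone (adjusted p = 0.0801). With age in normoxia, Acsl1 rose by 1.18 ± 0.29 (SE; limma adjusted p = 0.0128) with no overlap between P8 and P30, a call lost without normoxic P8 sample 13 (1.01, with an adjusted p just above the threshold).

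Cpt1b, which commits long-chain acyl groups to entry into the mitochondrion, was high in hypoxic P8 hearts alone among the 4 groups. Normoxic P8 samples 13, 22, 23 and 24 were at 14.10, 14.35, 14.25 and 14.07, and hypoxic P8 samples 4 to 8 at 15.37, 14.79, 15.74, 15.78 and 16.19. Normoxic P30 samples 2 to 5 were at 14.01, 14.26, 13.66 and 14.57, and hypoxic P30 samples 1 to 5 at 13.75, 13.99, 13.84, 13.87 and 14.15. Every hypoxic P8 value lay above the 13 values of the other groups, which overlapped each other. Means were 14.19 ± 0.13 (SD, n = 4) and 15.57 ± 0.53 (SD, n = 5) at P8, and 14.13 ± 0.39 (SD, n = 4) and 13.92 ± 0.15 (SD, n = 5) at P30. The P8 difference was 1.38 ± 0.25 (SE), 2.61-fold, with a limma adjusted p of 0.00261. Between ages in hypoxia Cpt1b fell by 1.65 ± 0.23 (SE; limma adjusted p = 3.06e-05), whereas in normoxia the difference was -0.07 ± 0.26 (SE). Without hypoxic P8 samples 4 and 5 the fall in hypoxia was 1.98. A RefSeq readthrough transcript, Gm44502, spans Cpt1b and its neighbour Chkb, a choline kinase gene, and the signal of a probe for Cpt1b may include it. Chkb, described for that position, was higher by 0.88 ± 0.25 (SE; limma adjusted p = 0.0469) in hypoxia at P8, a call of Chkb that was lost in 20 of 26 alternatives (0.52 with arrays centred, adjusted p = 0.572).

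Cpt2, which hands acyl groups back to coenzyme A inside the mitochondrion, differed from the other genes in its order of groups, with the highest values in normoxic P30 hearts. Its signal was 9.24, 9.24, 10.41 and 10.14 in normoxic P8 samples 13, 22, 23 and 24, and 9.71, 9.43, 10.05, 9.37 and 10.09 in hypoxic P8 samples 4 to 8. It was 10.68, 10.55, 10.64 and 10.84 in normoxic P30 samples 2 to 5, and 9.17, 9.79, 9.45, 9.55 and 9.96 in hypoxic P30 samples 1 to 5. The normoxic P8 samples fell into a low and a high pair that enclosed all 5 hypoxic ones, while at P30 every hypoxic value lay below every normoxic one. Means were 9.76 ± 0.61 (SD, n = 4) and 9.73 ± 0.34 (SD, n = 5) at P8, and 10.68 ± 0.12 (SD, n = 4) and 9.58 ± 0.31 (SD, n = 5) at P30. The P30 difference of -1.09 ± 0.26 (SE), 2.13-fold, did not pass limma's adjustment over the array (adjusted p = 0.480). An exact two-sided permutation test of this gene alone gave p = 0.00794, unadjusted and the smallest that 126 splits allow. Cpt2 was listed through this same P30 difference, so that p adds no support to it. The rise with age in normoxia, 0.92 ± 0.28 (SE; limma adjusted p = 0.0463), was lost in 17 of 27 alternatives. Leaving out any normoxic P30 sample, normoxic P8 samples 13 or 22, hypoxic P8 sample 4 or hypoxic P30 samples 2 to 5 ended it (adjusted p of Cpt2 0.0505 to 0.180).

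Acot1, the cytosolic thioesterase, was clearly separated by hypoxia at P8. Its log2 signal was 6.12, 6.69, 6.92 and 5.49 in normoxic P8 samples 13, 22, 23 and 24, and 8.44, 8.71, 9.32, 8.50 and 8.86 in hypoxic samples 4 to 8. At P30 it was 5.97, 5.93, 6.15 and 5.80 in normoxic samples 2 to 5, and 4.92, 5.61, 4.66, 5.03 and 5.20 in hypoxic samples 1 to 5. Hypoxic samples lay above all normoxic ones at P8 and below all of them at P30. Means were 6.31 ± 0.64 (SD, n = 4) and 8.77 ± 0.35 (SD, n = 5) at P8, and 5.96 ± 0.14 (SD, n = 4) and 5.08 ± 0.35 (SD, n = 5) at P30. The P8 difference was 2.46 ± 0.27 (SE), 5.51-fold, with a limma adjusted p of 4.98e-05. At P30 it was -0.88 ± 0.27 (SE), 1.84-fold, which did not pass (limma adjusted p = 0.812; exact permutation p = 0.0159, unadjusted). Acot1 stands in the lists of both ages, so both differences were selected and the permutation p adds no support. In hypoxia the P30 signal was 12.8-fold lower than at P8, a log2 difference of -3.68 ± 0.26 (SE; limma adjusted p = 8.11e-09), or -3.81 without hypoxic P8 samples 4 and 5. Of the 5 hypoxic P30 values, 4 lay under 5.48, the lower quartile of all values in the table, where the size of a fall may be understated.

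Acot2, the mitochondrial thioesterase, had the largest P8 difference of the 5 genes and the widest spread between samples. Normoxic P8 samples 13, 22, 23 and 24 were at 13.84, 14.67, 15.21 and 13.40, and hypoxic P8 samples 4 to 8 at 16.41, 15.83, 18.66, 17.46 and 18.68. Normoxic P30 samples 2 to 5 were at 12.86, 13.73, 14.13 and 14.52, and hypoxic P30 samples 1 to 5 at 13.52, 13.67, 11.45, 12.98 and 12.85. All hypoxic P8 values lay above all others, and the P30 groups overlapped. Means were 14.28 ± 0.81 (SD, n = 4) and 17.41 ± 1.29 (SD, n = 5) at P8, and 13.81 ± 0.71 (SD, n = 4) and 12.89 ± 0.88 (SD, n = 5) at P30. The P8 difference was 3.13 ± 0.57 (SE), 8.74-fold, with a limma adjusted p of 0.00278. The P30 difference of -0.92 ± 0.57 (SE) did not pass (limma adjusted p = 1; exact permutation p = 0.135, unadjusted). From P8 to P30 in hypoxia, Acot2 fell 22.8-fold (log2 difference -4.51 ± 0.54, SE; limma adjusted p = 3.99e-06). Without hypoxic P8 samples 4 and 5 this log2 difference was -5.37 (limma adjusted p = 3.90e-07).

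**Figure D1:**
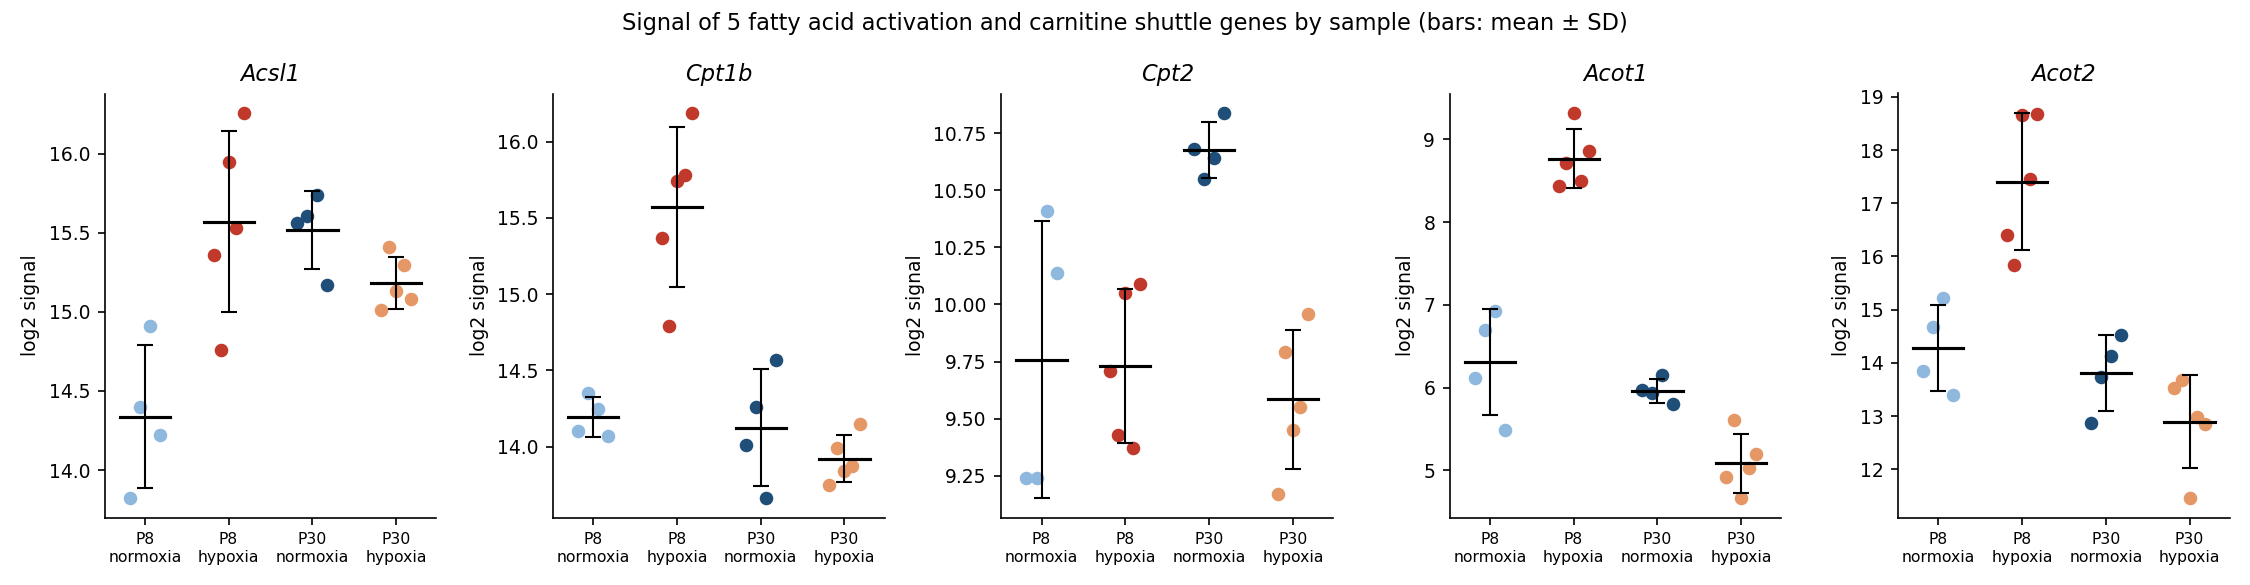
Log2 signal (vertical axis, a separate scale for each gene) in each sample of the 4 groups, with the mean and SD as black bars. Hypoxic P8 points lie above all others in Cpt1b, Acot1 and Acot2, overlap the P30 groups in Acsl1, and lie among the normoxic P8 points in Cpt2, whose normoxic P30 points are highest.

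Acot1 and Acot2 are close paralogs that RefSeq places next to each other on chromosome 12, followed by Acot4 and Acot3 of the same family. Their probes may share signal, so the values of each remain uncertain in that respect. Over all 18 samples the log2 signals of Acot1 and Acot2 had a Pearson r of 0.942, and 0.651 after group means were removed, both over samples of the same arrays and given as a description. Among hypoxic P8 samples, sample 5 held the middle place in Acot1 and the lowest in Acot2. Sample 4 was lowest in Acot1 and second lowest in Acot2. Acot3, a peroxisomal thioesterase, was at 4.13 to 4.31 in normoxic and 5.05 to 6.11 in hypoxic P8 samples, a difference of 1.33 ± 0.24 (SE; limma adjusted p = 0.00312). For Acot4, which has no value per sample here, the authors' deposited table gives a 1.47-fold higher signal in hypoxia at P8 with a q of 0.242.

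Within the hypoxic P8 group, sample 5 was lowest and sample 4 second lowest in Acsl1, Cpt1b and Acot2, the 2 samples with the highest interferon-induced genes. In Cpt2 and Acot1 they did not take the lowest places together. Sample 8 had a higher interferon mean (10.40) than samples 6 and 7 (7.05 and 6.59). It was nevertheless highest of the group in Acsl1, Cpt1b, Cpt2 and Acot2. Samples 4 and 5 also differed from samples 6 to 8 in other marker means. Cardiomyocyte means were 15.61 and 15.60 against 14.49 to 14.88, macrophage means 7.18 and 7.00 against 6.03 to 6.41, and neutrophil means 6.135 and 6.855 against 4.85 to 5.29. Erythroid, endothelial and fibroblast and mural means were lower in samples 4 and 5 than in samples 6 to 8. The part of these markers was not tested. Without samples 4 and 5 the P8 differences were 1.58 for Acsl1, 1.71 for Cpt1b, 0.08 for Cpt2, 2.59 for Acot1 and 3.99 for Acot2. The calls of Acsl1, Cpt1b, Acot1 and Acot2 held without them (limma adjusted p of at most 0.00180). The plot of Acot2 by sample sets these values side by side.

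**Figure D2:**
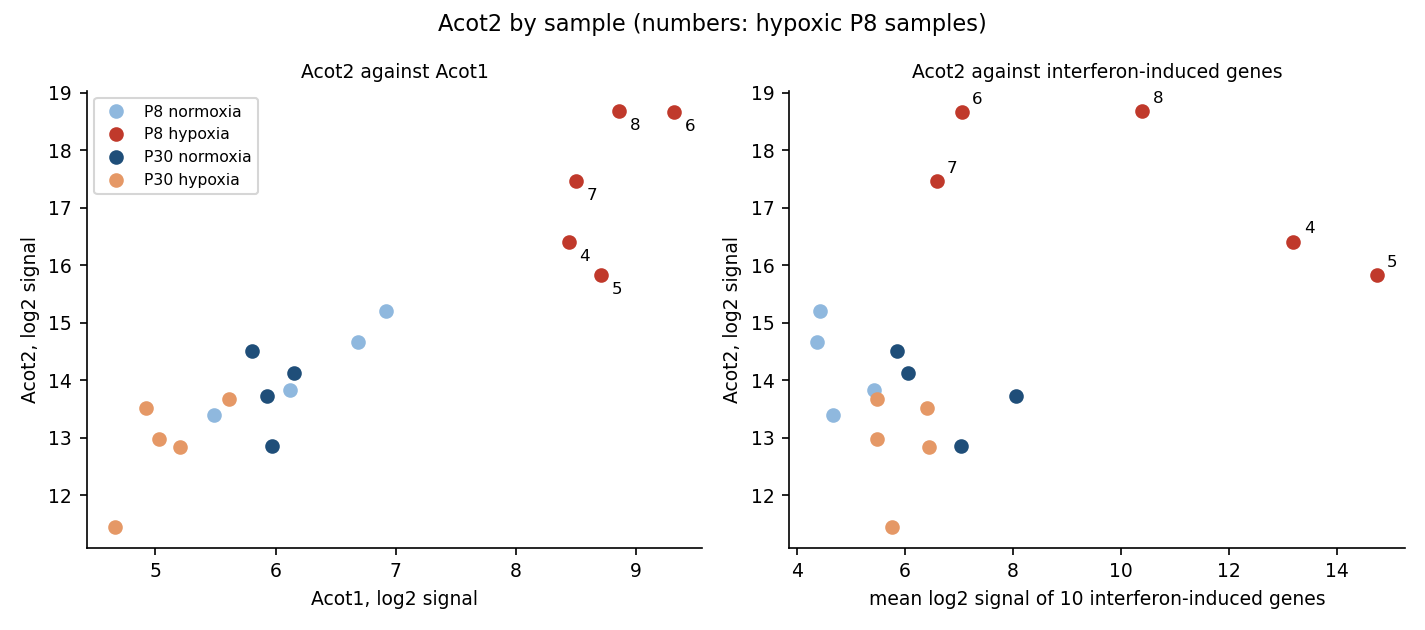
Acot2 log2 signal (vertical axes) against Acot1 log2 signal (left) and against the mean log2 signal of 10 interferon-induced genes (right), 1 point per sample, colored by group, with hypoxic P8 samples numbered. Samples 4 and 5 have the lowest Acot2 of the hypoxic P8 group, at 16.41 and 15.83, and interferon means of 13.19 and 14.74. Sample 8 has the highest Acot2, at 18.68, and an interferon mean of 10.40.

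At P8, limma called 4 of the 5 genes higher in hypoxia, where it called 15.2% of all 4704 probes higher, and 3 of the 5 had no overlap between groups, against 16.4% of all probes. The median log2 difference of the 5 genes was 1.38, against 0.18 over all probes. At P30, limma called 0 of the 5, as it called 0% of all probes. At an unadjusted p under 0.05 it found Cpt2 and Acot1 lower, as it found 8.97% of all probes lower at that threshold. These were also the genes without overlap at P30, against 3.4% of all probes that were lower without overlap, and the P30 median of the 5 genes was -0.88 against -0.10. By exact permutation without adjustment 3 of the 5, Acsl1 (p = 0.0476) besides Cpt2 and Acot1, had p under 0.05 at P30. Acsl1 was at -0.33 ± 0.27 (SE) at P30, where limma gave it an unadjusted p of 0.233. Cpt2 and Acot1 were listed through this same difference, so nothing is read from their P30 results. Centring the arrays on their medians shifted every P8 difference down by 0.37 and every P30 difference up by 0.16. The P8 values became 0.87 for Acsl1, 1.01 for Cpt1b, -0.40 for Cpt2, 2.09 for Acot1 and 2.76 for Acot2, and the direction of each gene was kept.

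The hypoxia effects at the 2 ages were compared by their difference, P30 minus P8. It contains the P8 or P30 differences through which the 5 genes were listed, so values below 0 are favoured by that choice. Acot1 was at -3.34 ± 0.39 (SE; limma adjusted p = 2.69e-04), Acot2 at -4.04 ± 0.80 (0.0169) and Cpt1b at -1.59 ± 0.35 (0.0292). Acsl1 at -1.57 ± 0.38 (SE; limma adjusted p = 0.0507) and Cpt2 at -1.07 ± 0.37 (0.191) did not pass. Thus 3 of the 5 passed lower, against 4.34% of all probes, a count that the choice raises and from which nothing is read. Without hypoxic P8 samples 4 and 5 the values were -3.47 for Acot1, -4.90 for Acot2, -1.92 for Cpt1b, -1.91 for Acsl1 and -1.17 for Cpt2. Acot1 and Acot2 passed in every alternative fitted (adjusted p of at most 0.0401). Cpt1b was lost with arrays centred (-1.06, adjusted p = 0.127) and without normoxic P8 sample 24, hypoxic P8 sample 8, normoxic P30 samples 3 or 5 or hypoxic P30 samples 1 or 3 (-1.57 to -1.43, adjusted p = 0.0507 to 0.0656). Acsl1 passed without normoxic P8 sample 23, hypoxic P8 sample 5, normoxic P30 sample 5 or both hypoxic P8 samples 4 and 5 (-1.91 to -1.69, adjusted p = 0.00806 to 0.0455), and with array weights or a prior with intensity trend (0.0255 and 0.0422).

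Between P8 and P30 in normoxia, Acsl1 and Cpt2 rose, 2 of the 5 against 18.3% of all probes called higher, and each had no overlap, against 20.5%. Cpt1b, Acot1 and Acot2 were at -0.07 ± 0.26, -0.34 ± 0.29 and -0.47 ± 0.60 (SE) and did not pass. In hypoxia the order was another one: Cpt1b, Acot1 and Acot2 fell, 3 of the 5 against 43.9% of all probes called lower, all without overlap, against 35.3%. Acsl1 (-0.39 ± 0.26, SE) and Cpt2 (-0.15 ± 0.25) did not pass there (-0.73 and -0.25 without samples 4 and 5), and their sign turned with arrays centred (0.09 and 0.33). Both age comparisons share samples with the hypoxia comparisons, so the values are set side by side only. The plot of differences shows all 4 comparisons for each gene.

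**Figure D3:**
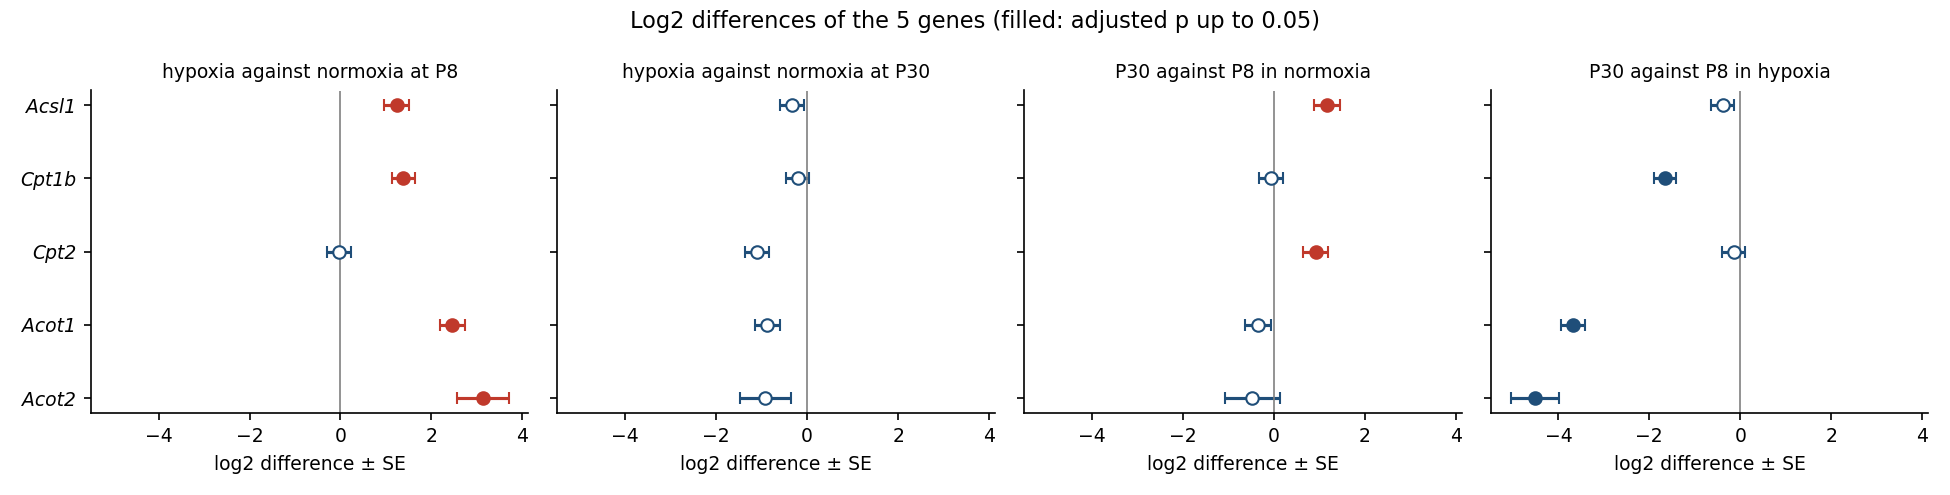
Log2 difference with its SE (horizontal axes) for each of the 5 genes in 4 comparisons, filled where the limma adjusted p was up to 0.05, red where higher and blue otherwise. At P8 all but Cpt2 are filled on the right, at P30 none is filled, and in hypoxia Cpt1b, Acot1 and Acot2 are filled on the left from P8 to P30.

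Other genes of fatty acid handling were taken from 10 lists of 120 genes written with earlier results of these data known, of which 30 genes had values per sample. All 30 were named through the authors' lists, which hold probes that passed at 1 of the ages, while the probes of the whole table include 2031 without a symbol here. Their counts are raised by this choice, and nothing is read from them against the share of all probes. At P8, limma called 13 of the 30 higher and 1 lower in hypoxia, against 15.2% and 5.57% of all probes, with a median log2 difference of 0.83, and 13 and 0 without hypoxic samples 4 and 5. With arrays centred it called 7 higher and 3 lower, without normoxic sample 13 or normoxic sample 24 or with quantile normalization it called 8 higher, and in a fit of the P8 groups alone 6. At P30 it called 0 of the 30, with 2 higher and 10 lower at an unadjusted p under 0.05 (4.97% and 8.97% of all probes) and a median of -0.20. Ppargc1a, a coactivator of PPARs, was among the higher ones (1.69 ± 0.51, SE; limma adjusted p = 0.772). All 5 mitochondrial and all 5 peroxisomal beta-oxidation genes with values were below 0 at P30. Their medians were -0.57 and -0.44, against -0.10 over all probes. Several of them stand in the authors' P30 list, so nothing is read from this.

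Of 12 listed genes of fatty acid uptake and lipoprotein lipolysis 4 had values, all of them through the authors' P8 list and called higher at P8, so that nothing is read from this count. Angptl4, an inhibitor of lipoprotein lipase, was at 7.63 to 8.70 in normoxic and 10.07 to 10.88 in hypoxic samples, a difference of 2.12 ± 0.33 (SE; limma adjusted p = 8.20e-04). Lipoprotein lipase itself, Lpl, rose by 1.29 ± 0.31 (adjusted p = 0.0194) and its maturation factor Lmf1 by 1.39 ± 0.29 (0.00824). Fabp5, a fatty acid binding protein, rose by 1.40 ± 0.38 (0.0389). The authors' deposited table also lists Fabp3, an uptake gene without values per sample, as 1.09-fold higher in hypoxia at P8 (q of 0.1355). There the fatty acid transporter and synthetase gene Slc27a2, counted here with the synthetases, has a signed fold of -1.15 (q of 0.247). Its averages of 1.95 in hypoxia and 2.16 in normoxia lie near 1.69, the lowest value per sample. The call of Fabp5 ended without any 1 of the normoxic P8 samples, without hypoxic P8 samples 5, 6, 7 or 8 or without normoxic P30 sample 3 (adjusted p up to 0.118). That of Lpl was lost when normoxic sample 13, normoxic sample 24 or hypoxic sample 8 was left out (adjusted p of at most 0.0684). Both also ended with arrays centred (0.167 for Fabp5 and 0.0992 for Lpl). In the difference of effects between ages, Lpl (-2.06 ± 0.44, SE; limma adjusted p = 0.0237) and Lmf1 (-1.99 ± 0.41, 0.0197) passed, neither with arrays centred (0.0634 and 0.0589), and Lpl not without normoxic P30 sample 3 (0.0596). Both genes were named for their P8 differences, which the difference of effects contains. Lpl also stands in the authors' P30 list, with a signed fold of -1.62, so both parts of its difference of effects were selected.

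Among other acyl-CoA synthetases, 2 of 4 with values, of 16 listed, were called higher at P8. Acsl5, a synthetase of mitochondria and reticulum, was at 6.69 to 7.42 in normoxic and 7.61 to 10.07 in hypoxic samples (1.59 ± 0.35, SE; limma adjusted p = 0.0114). Acsl4, which prefers arachidonic acid, rose by 0.98 ± 0.23 (adjusted p = 0.0191). Neither passed with arrays centred (0.0538 and 0.203), and Acsl4 not without hypoxic samples 4 and 5 (0.134) or normoxic samples 13 or 24 (0.0520 and 0.0798). Of 13 other thioesterases Acot3 alone had a value. Of 11 other shuttle genes 2 had values and 0 were called by limma: Cpt1a, the liver form of the outer enzyme, was 0.90 ± 0.28 (SE) higher at P8 (adjusted p = 0.0851), with no overlap, and passed without normoxic P30 sample 4 (0.0392). The carnitine transporter Slc22a21, listed through P30, was at -0.10 ± 0.28 (SE) at P8. At P30 it was at -0.69 ± 0.28 (SE; limma unadjusted p = 0.0256), a difference through which it was selected. Its highest group mean, 4.83 in normoxic P30 hearts, lay under the lower quartile of 5.48. None of 5 genes of malonyl-CoA, the inhibitor of the outer enzyme, had a value per sample.

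Beta-oxidation, the step that follows the shuttle, was covered by few probes. Of 5 mitochondrial beta-oxidation genes with values, of 19 listed, Acadvl, the very long-chain acyl-CoA dehydrogenase, rose at P8 by 0.92 ± 0.24 (SE; limma adjusted p = 0.0275). That call was lost with arrays centred (0.226), with array weights (0.0555), and when normoxic samples 13 or 24 or any of hypoxic samples 6, 7 and 8 was left out (at most 0.128). Of 5 peroxisomal genes, of 13 listed, Decr2, a dienoyl-CoA reductase, rose by 1.41 ± 0.26 (adjusted p = 0.00341) and Scp2, a thiolase and sterol carrier, fell by 0.84 ± 0.22 (0.0365). Leaving out any of normoxic samples 22, 23 and 24 or of hypoxic samples 4, 5 and 6 ended the call of Scp2 (at most 0.0992), as did leaving out samples 4 and 5 together (0.290). Decr2 also passed in the difference of effects between ages (-1.74 ± 0.37, SE; limma adjusted p = 0.0241), though not without normoxic P8 sample 24 or normoxic P30 samples 3 or 4 (at most 0.0549) or with arrays centred (0.0602). It was named for its P8 difference, which the difference of effects contains.

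Lipid droplets and the PPAR regulators were represented by single called genes. Plin2, a coat protein of lipid droplets, rose at P8 by 1.87 ± 0.35 (SE; limma adjusted p = 0.00368). Of 4 regulators with values, of 16 listed, the receptor gene Pparg rose by 2.08 ± 0.43 (0.00744), while Ppara, the receptor most tied to oxidation in the heart, was at -0.77 ± 0.33 (0.310). Of 6 other PPAR targets with values, of 25 listed, 5 rose at P8, among them Angptl4, Acadvl, Plin2 and Ucp2, an uncoupling protein (1.62 ± 0.44, SE; limma adjusted p = 0.0376), the last named after its value was seen.

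Among the genes named above, a fit of the P8 groups alone ended the P8 calls of Lmf1, Lpl, Acsl4, Acsl5, Acadvl, Scp2 and Ucp2 (adjusted p = 0.0592 to 0.129). Quantile normalization ended those of Fabp5, Acsl4, Acsl5, Acadvl and Ucp2 (0.0648 to 0.125) and, in the difference of effects, those of Lmf1 and Decr2 (0.0903 and 0.0833). The P8 call of Ucp2 also ended with arrays centred and when any of normoxic samples 13 and 22 and of hypoxic samples 6 to 8 was left out (0.0520 to 0.144).

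**Figure D4:**
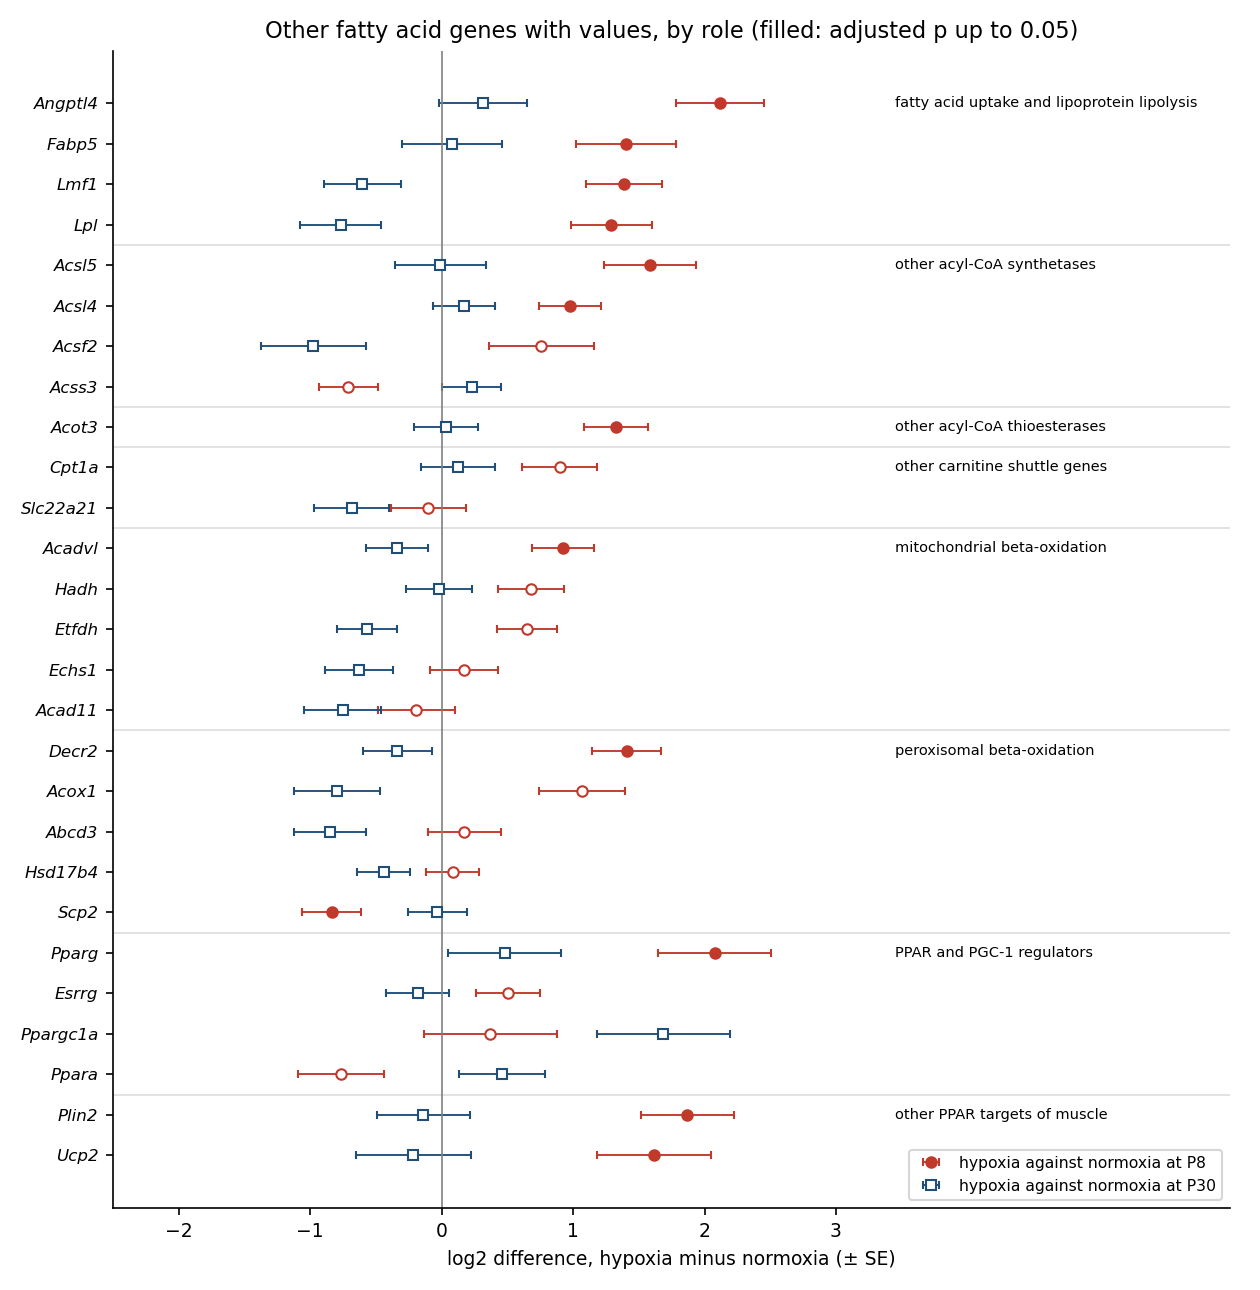
Log2 difference of hypoxia minus normoxia with its SE (horizontal axis) for 27 of the 30 other fatty acid genes grouped by role, at P8 (circles) and P30 (squares), filled where the limma adjusted p was up to 0.05. Filled P8 circles lie to the right for 12 genes and to the left for Scp2, and no P30 square is filled.

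Across ages, limma called 10 of the 30 genes higher and 4 lower in normoxia, and 8 higher and 15 lower in hypoxia, or 13 higher and 9 lower in hypoxia with arrays centred. Over all probes these shares were 18.3% and 16.3% in normoxia and 26.3% and 43.9% in hypoxia. In the difference of effects 3 of the 30 passed lower (Lpl, Lmf1 and Decr2) and 0 higher, against 4.34% and 0.829% of all probes, 6 lower without hypoxic P8 samples 4 and 5 or sample 6 alone, 1 lower without normoxic P30 sample 3, and 4 higher and 0 lower with arrays centred, which moved every such difference up by 0.53. Genes without a value per sample are known only from the authors' deposited table, with no error of their own here. It lists 8 of them at P8, 5 higher and 3 lower in hypoxia, and 8 at P30, 2 higher and 6 lower. Slc25a20, the translocase between Cpt1b and Cpt2, stands there with a 1.33-fold higher signal at P8 (q of 0.171) and a signed fold of -1.26 at P30 (q of 0.477). At P30 the same authors' deposited table gives -1.11 for Hadha, a subunit of the trifunctional protein, -1.68 for the peroxisomal enzyme Ehhadh and -1.71 for Pex11a, a peroxisome division gene, with q from 0.655 to 0.715.

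Markers of other cells also differed at P8. They too had values only where the authors' lists named their probes, which raises the counts of calls. Over all probes limma called 15.2% higher and 5.57% lower at P8, and nothing is read from the marker counts against these shares. Erythroid markers, 6 of 11 with values, had a mean of 7.79 to 8.93 in hypoxic and 5.33 to 7.59 in normoxic P8 samples, with 5 of 6 called higher. Macrophage markers, 7 of 12, were at 6.03 to 7.18 and 4.78 to 5.37, with 4 called higher. Neutrophil markers, 4 of 8, were at 4.85 to 6.86 and 3.58 to 4.48, with 3 called higher, and endothelial markers, 2 of 10, at 12.55 to 13.63 and 11.31 to 11.68, both called higher. Fibroblast and mural markers, 4 of 10, were at 12.75 to 13.20 in hypoxic and 14.11 to 14.69 in normoxic samples, with 2 called lower. Cardiomyocyte markers were at 14.49 to 15.61 and 15.41 to 15.92, with Ttn, Ryr2 and Ckmt2 called lower. Of the 6 cardiomyocyte markers 4 were below 0 and 2 above. The latter were Myh7 (0.78 ± 0.38, SE) and Nppb (0.75 ± 0.63), neither called. Of 10 adipose markers, a tissue rich in these enzymes, Cidea (0.59 ± 0.28, SE; limma adjusted p = 0.422) and Ppargc1a (0.37 ± 0.51, adjusted p = 1) had values. No skeletal muscle marker of 11 had one. No marker with a value was at 0, and the part of these cells in the differences above was not tested.

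The probes most like each gene over the 18 samples were named by Pearson correlation of log2 signals, which the 4 groups and shared arrays drive in part. For Acot2 they included Shroom3 (0.961) and Actn4 (0.947), and for Acot1 they were Nuak1 (0.952), Agpat3 (0.949) and Acot2 (0.942). Cpt1b was closest to Msmo1 (0.944), Msn (0.942) and the thioesterase Acot3 (0.931), and Acsl1 to Tbc1d5 (0.893), Arid1b (0.885) and Rasl10b (0.879). The closest probes of Cpt2 reached lower values, with Klf12 at 0.773, Cdk18 at 0.770 and Helb at 0.761.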

How the data were processed

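Log2 signals per probe in 18 mouse heart samples came from the authors' deposited value table. Affymetrix Expression Console is named, with no version, per the submitters' processing notes, while normalization and test are not given in the sources used here. In the authors' deposited gene lists each probe has its log2 averages, a score (the signed fold, negative where hypoxia is lower), a p-value and a q-value for 1 age. There, 3 p-values stored as clock times were restored.

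Probes were named only through those lists: 2568 have 1 symbol, 105 several and 2031 none here, and 89 symbols were updated through a RefSeq table. A gene with several probes was represented by its brightest one (highest mean).

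All 4704 probes were fitted with limma 3.58.1 in R 4.3.3 (lmFit, contrasts.fit, eBayes), with 1 term per group and no block. Residual degrees of freedom were 14 and prior ones 5.98. P-values were adjusted by Benjamini-Hochberg for 22201 tests, which the authors' P8 list implies (q-value times rank over p-value), with probes outside the table taken to rank below. Calls needed an adjusted p up to 0.05. When P8 data were simulated, 23% of probes changed by 1 on the log2 scale and 85% of those changed by 2 were recovered, with 1 false call among 109.

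The 5 genes and all lists were chosen with earlier results of these data known. Besides the 5 genes the text names, from each pathway list, up to 4 genes with the largest statistic among those past the threshold at either age, or 1 where none passed, and for each of the 5 the 3 probes of highest correlation. The values of 1 pathway list and of some genes under this rule are not reported here. Genes outside this rule are given for a count, a position or a deposited value and were picked after their values were seen. Sample numbers shared between groups were checked as a pairing and did not pair the samples. No 2 samples held identical values, and the highest correlation between samples was 0.988. The alternatives were centred or quantile-normalized arrays, adjustment over the table alone, leaving out dim probes (under 5.48 in every group mean), array weights, a prior with intensity trend, each sample left out, samples 4 and 5 left out, 2 groups only, exact permutation and a replicate block.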

Additional observations from a re-analysis of the deposited data

Results flagged for a closer look

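The hypoxia effect differed between P30 and P8, by the limma test of that difference, in Cpt1b (-1.59, adjusted p = 0.0292), Acot1 (-3.34, adjusted p = 2.69e-04) and Acot2 (-4.04, adjusted p = 0.0169), each higher in hypoxia at P8 and below 0 at P30. Among the other named fatty acid genes it differed in Lmf1 (-1.99, adjusted p = 0.0197), Lpl (-2.06, adjusted p = 0.0237) and Decr2 (-1.74, adjusted p = 0.0241). All of these genes were chosen through their P8 or P30 differences, which the tested difference contains, so values below 0 are favoured in advance. With arrays centred, Cpt1b, Lmf1, Lpl and Decr2 did not pass.

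In normoxic P30 hearts Angptl4 of sample 4 stood apart, at 9.92 on the log2 scale against 8.36 in the nearest of the other 3 samples (gap over range 0.881). It was the only 1 of 76 groups examined over 19 genes to do so, and chance gives about 1 in 20.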

How the results depend on the processing

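Of 675 values of the 5 genes under alternatives, 28 lost a call, 11 gained one, 11 turned sign and the others did none of these. Acot1 and Acot2 kept their calls at P8, in the difference of effects and between ages in hypoxia under every alternative run. The number of the 5 genes called at P8 stayed at 3 to 4, and at 4 over samples left out. At P30 it was 0 in every alternative but the unadjusted exact permutation test, which gave 3. The difference of effects had 5 called when adjusted over the table alone and 2 to 4 over samples left out. The age comparison in normoxia had 1 called with arrays centred, quantile normalization, dim probes left out, array weights, samples 4 and 5 left out or only 2 groups fitted, and 0 to 2 over samples left out. Signs turned for values near 0: Cpt2 at P8 was 0.079 without hypoxic samples 4 and 5 and -0.20 to 0.19 over samples left out, and Cpt1b with age in normoxia was -0.22 to 0.088. With age in hypoxia Cpt2 turned to 0.33 with arrays centred and 0.21 with quantile normalization, and Acsl1 to 0.087 with arrays centred. The causes were not tested.

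Same-numbered P30 samples did not deviate together (correlations -0.17 to 0.07), so a replicate block has no basis in the design. With the block, 0 of the 5 genes were called at P30. In hypoxia between ages, where numbers 4 and 5 are shared (correlations -0.21 and 0.18), the block left 2 called, with Cpt1b at -1.07 (adjusted p = 0.196), Cpt2 at 0.19 and Acsl1 at 0.13. Acot2, still called, was at -3.21 (adjusted p = 0.00737). The other comparisons, the difference of effects included, involve normoxic P8 samples, whose numbers occur in no other group, so no block could be fitted for them.

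Over all probes, adjusting over the table alone called 1938 at P8 (976 otherwise), 4 at P30 (0, and 5 with array weights), 1191 for the difference of effects (243) and 2669 with age in normoxia (1627). The difference of effects had 570 with arrays centred, 608 with array weights and 478 without samples 4 and 5. Single samples moved it to 375 and 376 (without normoxic P8 sample 13 and hypoxic P8 sample 5) and 139 (without normoxic P30 sample 3, which also left 1079 with age in normoxia). The P8 count was 632 and 566 without normoxic P8 samples 22 and 24, and the P30 count 2 and 3 without normoxic P30 samples 2 and 5. Of the 30 other fatty acid genes, 13 were lower in the difference of effects when adjusted over the table alone, 8 with array weights and 5 with an intensity trend. Fitting 2 groups called 429 at P8 and 1053 with age in normoxia, and the block 1115 with age in hypoxia (3304).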
